A study of Mus musculus with 4 samples.

Results

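The stathmins and a set of neuronal cytoskeleton genes were followed across 4 single-colour Agilent arrays of mouse embryonic stem (ES) cell cultures. The genes were Stmn1, Stmn2, Stmn3, Stmn4, Tubb3, Dcx, Map2, Mapt, Gap43 and Jakmip2, and they were taken by the gene name that the scanner files give each probe. By that name 16 probes of 9 genes were found. Map2 is listed on this array under the older symbol Mtap2 and was added through its RefSeq accession, which brought the set to 18 probes of 10 genes, out of 55681 probes and 36039 genes. Stmn4, Stmn3 and Jakmip2 were chosen by their measured log2 differences in AZA minus ELA and CHQ minus ELA, where they were among the genes furthest below the untreated control. Those differences are therefore given as a description.

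All cultures came from the line E14Tg2A, of strain 129/Ola. The ES group was untreated ES cells at day 0, kept in serum with leukaemia inhibitory factor. The ELA group was untreated epiblast-like aggregates, which form when ES cells are kept for 2 days in a chemically defined minimal medium and leave the ground state of pluripotency for a primed state. The AZA group was ELA formed with 50 nM 5-azacytidine, an inhibitor of DNA methyltransferases. The CHQ group was ELA formed with 100 µM 5-carboxy-8-hydroxyquinoline, an inhibitor of histone lysine demethylases. The study asked how blocking chromatin regulators acts on priming.

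Each group was 1 array, and each array held RNA pooled from 3 experiments, so no spread between cultures can be given and no difference has a replicate check or a p-value. A difference between arrays was called when it was at least 1 on the log2 scale, with a mean log2 intensity of at least 7.5 and a spot well above background on at least 1 of both arrays. Probes printed in several spots of an array gave a standard deviation of 0.208 for a log2 difference, which covers spot error only. The ES and ELA arrays lay on 1 slide and the AZA and CHQ arrays on another. ELA minus ES and CHQ minus AZA are therefore differences within a slide. Where AZA or CHQ is set against ELA or ES, the slide and the treatment cannot be told apart. The slides also differed in background, whose median was 59 in ES and 77 in ELA, and only 14 in AZA and 13 in CHQ, in units of scanned intensity. Between 55.1% and 69.2% of gene spots were well above background and no spot was saturated.

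Stathmins are small phosphoproteins that bind soluble tubulin dimers and favour the disassembly of microtubules, and phosphorylation releases the tubulin. Stmn1 is the cytosolic form found in many proliferating cells, whereas Stmn2, Stmn3 and Stmn4 carry a membrane anchor and are known mainly from neurons. The other genes act on the same filaments or at the growing tip of the neurite: Tubb3 is the neuronal beta-tubulin, Dcx, Map2 and Mapt bind and stabilise microtubules, Gap43 is a membrane protein of the growth cone, and Jakmip2 belongs to a family of coiled-coil proteins that bind microtubules and Janus kinases.

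The level of each stathmin rests on probes of 60 bases. The starts of these probes and of the Gap43 probe are shown because the stathmin and Gap43 levels rest on them. The first 30 bases are given 5′ to 3′ as in the scanner files, which place them on the mm9 build, and capitals mark the 14 bases that both Stmn4 starts hold.
Stmn1, probe 1, chr4:134029355-134029414, plus strand: ctaaatatccaaagactgtactggccagtg
Stmn1, probe 2, chr4:134029695-134029754, plus strand: atctcaccagatgctactgtacttgaatgg
Stmn2, chr3:8561545-8561604, plus strand: tcttcttgtatgtcattgtgagcaagctgt
Stmn3, chr2:181041396-181041455, minus strand: cagcggcgacaagaacgttttcgggttttg
Stmn4, probe 1, chr14:66980442-66980501, plus strand: CGGGTGGGATAAGGtctgtgtgcgtctgtt
Stmn4, probe 2, chr14:66980426-66980485, plus strand: gagacctgccctgcagCGGGTGGGATAAGG
Gap43, chr16:42248714-42248773, minus strand: gttccgttctgaggagtccaaaatattaag
Over their whole length, the 13 pairs of probes of different stathmins shared no run longer than 7 bases. The 2 probes of Stmn1 itself shared only 8, so short runs do not show how well the array tells the paralogs apart. Probes were not compared with the transcripts of the other stathmins, and binding to them was not tested. The Stmn4 probes shared 44 of their 60 bases, so their values are not independent of each other. The other genes of the set with several probes (Stmn1, Dcx, Map2, Mapt and Jakmip2) had probes with shared runs of at most 8 bases. Whether a probe lies in a coding exon or in an untranslated region was not analysed here.

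The brightest probe stands for a gene below, and the values are log2 intensities after background correction and quantile normalisation. Stmn1 stood at 15.80 in ES, 15.81 in ELA, 16.23 in AZA and 15.59 in CHQ. Its second probe gave 15.66, 15.70, 16.05 and 15.49 in the same order. As reported, both probes put the cytosolic stathmin at nearly the same level on all 4 arrays, highest in AZA and lowest in CHQ. The span was 0.64 on the first probe and 0.56 on the second. None of the reported Stmn1 differences reached the size of a call. The order and the span depend on the scaling. With spike-in scaling ELA was -0.73 from ES, and AZA and CHQ were 0.01 and -0.87 from ELA. ES was then the highest array and the span was wider. ES was also highest with the processed signal and with 75th percentile scaling. The ELA minus ES difference of Stmn1 was 0.01 and took a negative sign under 5 of the 9 other ways of processing, and its AZA minus ELA difference of 0.42 became -0.01 when the scanner's processed signal was used.

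Stmn2, a membrane-bound stathmin also known as SCG10, stood at 14.14 in ES, 13.34 in ELA, 12.45 in AZA and 11.29 in CHQ. As reported, it was the stathmin with its highest level in undifferentiated ES cells. It was lower in ELA by a log2 difference of -0.80, below the size of a call. Median and spike-in scaling gave -1.18 and -1.55, which were called. The AZA array was -0.89 from ELA, also not called, and the CHQ array was -2.06 from ELA (4.16-fold lower) and was called. Stmn2 was thus the lowest on the CHQ array and the highest on the ES array, with 2.85 log2 units between them.

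Stmn3, the SCLIP protein, stood at 10.72 in ES, 12.34 in ELA, 9.02 in AZA and 7.73 in CHQ. It was higher in ELA than in ES by 1.61 (3.06-fold) and lower than ELA by -3.32 in AZA (10.0-fold) and by -4.60 in CHQ (24.3-fold). Both treated arrays also lay below the ES array, by -1.71 and -2.99, where the slide and the treatment again cannot be told apart.

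Stmn4, known as RB3, stood at 11.47 in ES, 13.31 in ELA, 7.11 in AZA and 8.32 in CHQ. Its overlapping second probe gave 11.14, 12.96, 7.10 and 8.05. The span of 6.20 log2 units was the widest among the 10 genes, with ELA at the top and AZA at the bottom. ELA was above ES by 1.83 (3.57-fold), and AZA and CHQ were below ELA by -6.20 (73.3-fold) and -4.98 (31.6-fold). As scanned, before any correction, the first Stmn4 probe read 3065 in ES, 9514 in ELA, 92.5 in AZA and 294 in CHQ over local backgrounds of 62, 72, 15 and 16. The spot was flagged as well above background on all 4 arrays, though in AZA it was near the low end of the scale. The AZA minus ELA difference was -6.84 with normexp without an offset and -6.40 with no background correction. Over all the other ways of processing, which also changed the scaling or the use of probes, it ranged from -7.35 to -6.02.

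These levels came from whole cultures, in which fewer cells that express a gene and less of its RNA per cell cannot be told apart. Within a comparison, the probes of Stmn1 lay at most 0.08 apart and those of Stmn4 at most 0.35, whereas those of Jakmip2, Map2 and Mapt lay up to 0.95, 1.11 and 1.09 apart, as the plot of levels by probe shows.

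**Figure D1:**
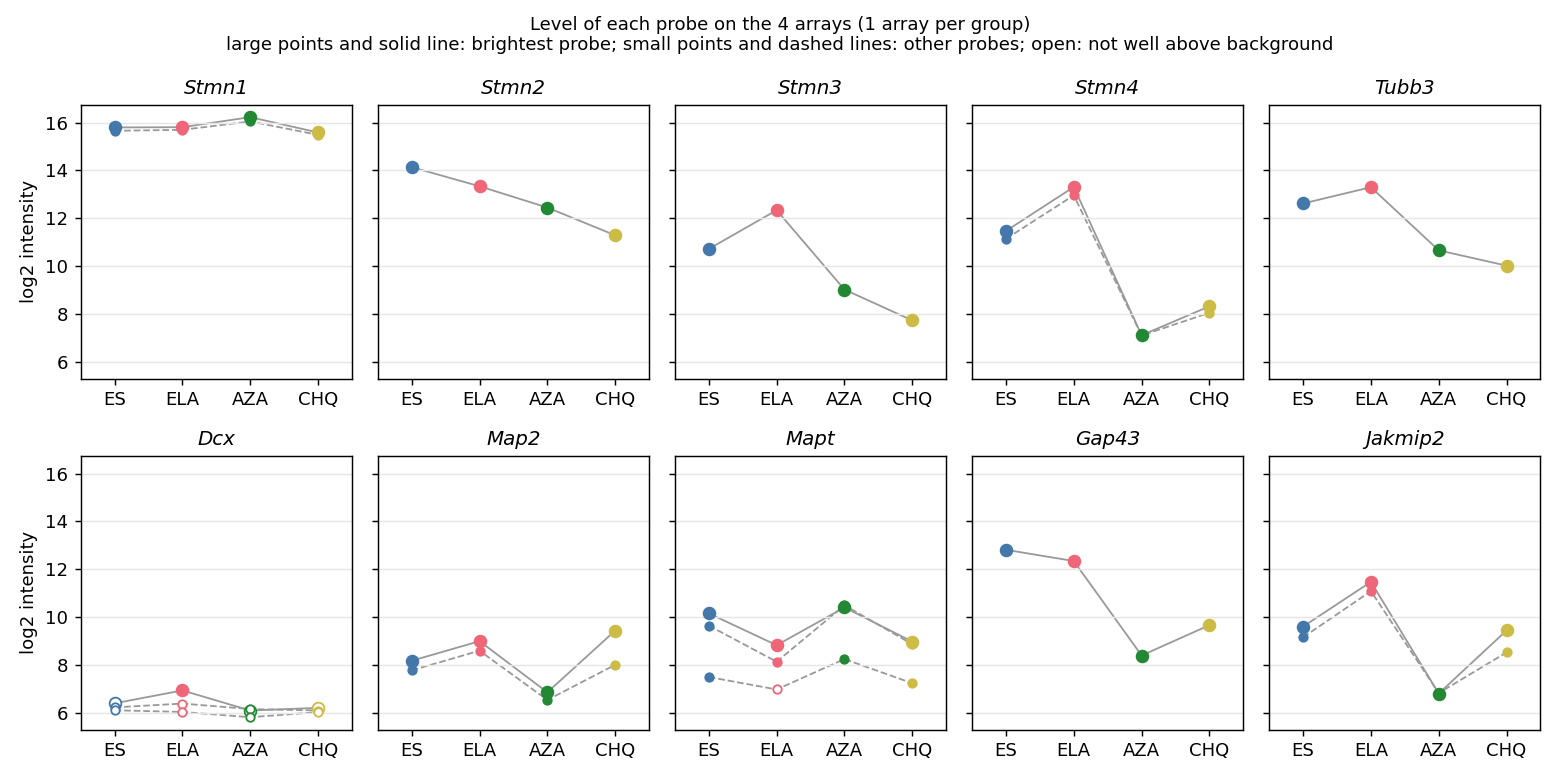
Log2 intensity (vertical axis) of each of the 18 probes on the ES, ELA, AZA and CHQ arrays (horizontal axis), 1 panel per gene, with lines that only join the points of a probe. Stmn1 stays between 15.49 and 16.23, whereas Stmn3, Stmn4, Tubb3 and Jakmip2 are highest in ELA, and Dcx is well above background (filled point) on the ELA array alone.

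Among the tubulin and microtubule-binding genes, Tubb3 stood at 12.62 in ES, 13.30 in ELA, 10.66 in AZA and 10.02 in CHQ. The order of its levels over the arrays, from CHQ through AZA and ES to ELA, was that of Stmn3. It was 0.68 higher in ELA than in ES, which was not called, and lower than ELA by -2.64 in AZA (6.25-fold) and by -3.28 in CHQ (9.74-fold). Under spike-in scaling the ELA minus ES difference of Tubb3 was 0.04.

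Dcx, doublecortin, was close to background throughout. Its brightest probe read 6.39 in ES, 6.93 in ELA, 6.09 in AZA and 6.20 in CHQ and was well above background on the ELA array alone. Its other 2 probes were not well above background on any array, and Dcx therefore entered no count of calls. As reported, the ELA signal of the brightest probe was 1.33-fold above the lowest signal that was well above background in ES. The same folds were 1.44 for AZA and 1.42 for CHQ. They are not lower bounds for Dcx. Its ELA minus ES difference was 0.20 under spike-in scaling, and another of its probes put ELA -0.06 from ES.

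Map2, the dendritic microtubule-associated protein, stood at 8.17 in ES, 8.99 in ELA, 6.85 in AZA and 9.43 in CHQ. Its second probe gave 7.77, 8.59, 6.53 and 8.0. Both probes were lowest in AZA, by -2.14 and -2.07 from ELA, and the first reached -3.33 under other processing. They disagreed on CHQ, where the first was 0.44 above ELA and the second -0.59 below it, so no direction can be given for Map2 with CHQ. Both placed CHQ above AZA, by 2.58 and 1.47.

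Mapt, which encodes the axonal protein tau, was called lower in ELA than in ES and higher in AZA than in ELA. No other gene of the set was called higher in AZA than in ELA under the 9 other ways of processing, whereas Stmn2 and Gap43 joined it below ES under some of them. Its brightest probe stood at 10.15 in ES, 8.82 in ELA, 10.40 in AZA and 8.97 in CHQ, and its second probe at 9.64, 8.13, 10.49 and 8.86. The lowest level was in ELA and the highest in AZA on all 3 Mapt probes. On the brightest probe ELA was below ES by -1.33 and AZA was above ELA by 1.58 (3.0-fold), which put Mapt 0.26 above the ES level. The other probes put AZA 0.85 and 0.76 above ES. CHQ was 0.14 above ELA on the brightest probe and 0.72 on the second, neither called. On the brightest probe CHQ was below AZA by -1.44. The dimmest Mapt probe, at 7.49, 6.97, 8.24 and 7.23, was not well above background in ELA. As reported, it put AZA 2.41-fold above ELA.

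Gap43, the growth cone protein also called neuromodulin, stood at 12.81 in ES, 12.34 in ELA, 8.39 in AZA and 9.66 in CHQ. It was high on both untreated arrays and low on both treated ones. ELA was -0.47 from ES, which was not called (but was -1.18 and called under spike-in scaling), and AZA and CHQ were below ELA by -3.95 (15.5-fold) and -2.68 (6.40-fold). Against ES the differences were -4.42 and -3.14.

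Jakmip2, on mouse chromosome 18, stood at 9.60 in ES, 11.47 in ELA, 6.80 in AZA and 9.44 in CHQ. Its second probe gave 9.15, 11.08, 6.82 and 8.52. Both probes were highest in ELA, by 1.87 and 1.93 over ES, and lowest in AZA. AZA was below ELA by -4.66 (25.3-fold) and CHQ by -2.02 (4.06-fold). The AZA value was low, and the AZA minus ELA difference of Jakmip2 reached -6.13 under other processing. The AZA array lay -2.80 from ES on the first probe and -2.32 on the second. The CHQ array lay -0.16 from ES on the first probe, near the level of the starting cells, and -0.63 on the second. The related gene Jakmip1 was at 9.43, 10.47, 10.93 and 10.05, with ELA called higher than ES by 1.04 (0.48 under spike-in scaling) and neither treated array called against ELA. Jakmip3 was not well above background on any array.

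The comparison of ELA with ES asks what changes when cells are primed, and both arrays lay on 1 slide. Of 18973 genes with enough signal, 4.51% were called higher and 5.5% lower in ELA. Of the 9 genes of the set with enough signal, Stmn3, Stmn4 and Jakmip2 were called higher and Mapt was called lower, and 5 were not called. The median difference of the 10 genes was 0.61 (from 0.12 to 0.86 under other processing), against -0.02 over all detected genes. The 3 genes called higher are the ones chosen for their low level in treated aggregates relative to the same ELA array, so a high value on that array enters both facts. Under spike-in scaling 317 of all genes were called higher and 3897 lower, and median scaling gave 553 and 1518, so the size of the imbalance over all genes depends on the scaling. Stmn3, Stmn4 and Jakmip2 remained at least 1.0 above ES under every scaling.

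**Figure D2:**
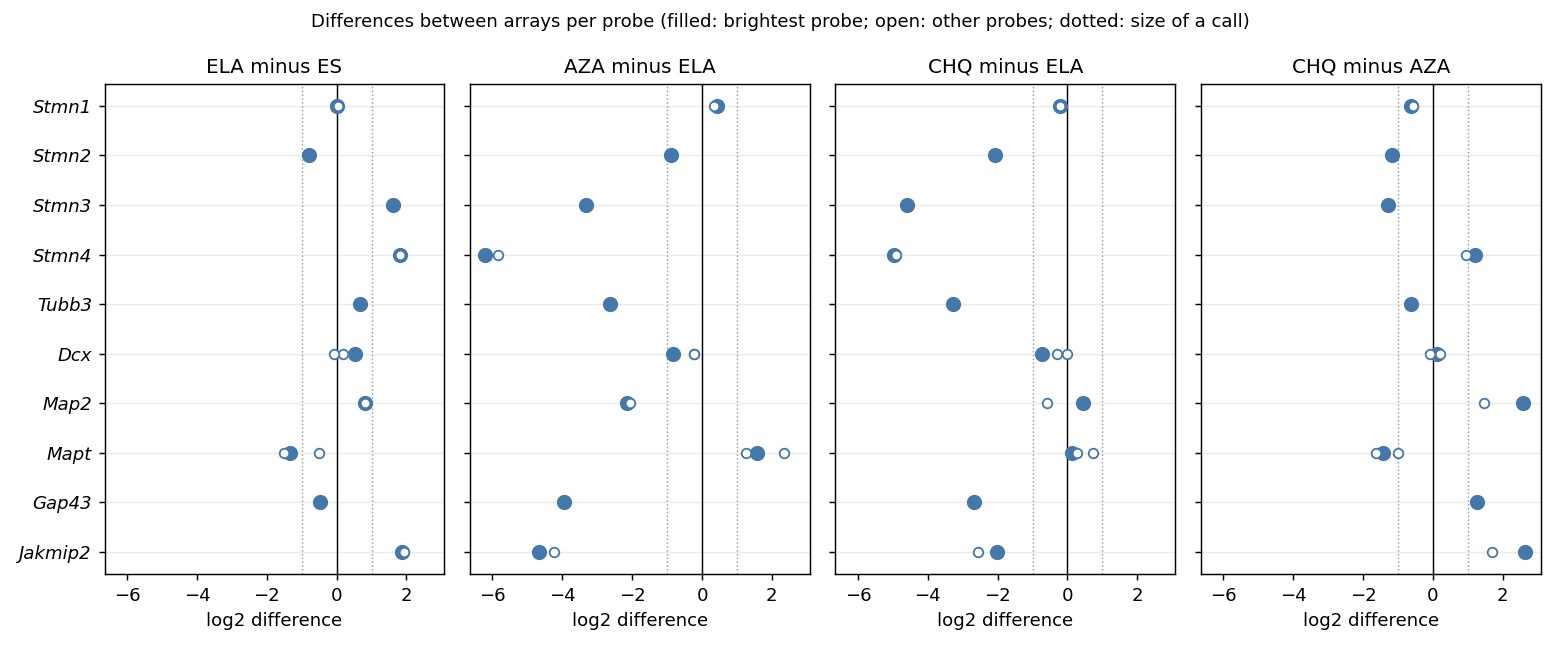
Log2 difference (horizontal axis) of each probe of the 10 genes (vertical axis) in the 4 comparisons, with filled points for the brightest probe, open points for other probes and dotted lines at the size of a call. Stmn3, Stmn4, Tubb3, Gap43 and Jakmip2 lie left of -1 in both comparisons with ELA, Mapt lies right of 1 in AZA minus ELA, and CHQ minus AZA has genes on both sides.

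In AZA minus ELA, 14.2% of 19167 genes were called higher and 11.4% lower. Of the set, Stmn3, Stmn4, Tubb3, Map2, Gap43 and Jakmip2 were called lower and Mapt higher, and Stmn1 and Stmn2 were not called. Map2 lost its call with normexp without an offset, with the processed signal and with the authors' value table, where it was -2.82, -3.33 and -2.81 from ELA but under the minimum mean level. The median over the 10 genes was -2.39, against -0.03 over all detected genes. Over the other ways of processing the median of the 10 genes ranged from -3.39 to -2.18. With median scaling the calls over all genes were 3652 higher and 1335 lower, and with spike-in scaling 2363 and 2850. Part of the set was chosen in this contrast, so nothing about the set is read from these counts.

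In CHQ minus ELA, 14.8% of 19182 genes were called higher and 11.9% lower. Stmn2, Stmn3, Stmn4, Tubb3, Gap43 and Jakmip2 were called lower, and none of the 10 genes was called higher. Stmn1, Map2 and Mapt were not called. The median of the 10 genes was -2.04 (from -2.45 to -1.73 under other processing), against -0.04 over all detected genes. The calls over all genes were 3659 higher and 1485 lower with median scaling and 2061 and 4209 with spike-in scaling. The ELA array is common to both comparisons with treated cultures, so their values are given side by side only.

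The arrays of the inhibitors were compared with each other within their slide. In CHQ minus AZA, 5.6% of 19174 genes were called higher and 4.8% lower, and under spike-in scaling 791 were called higher and 1108 lower. Jakmip2 (2.64), Map2 (2.58), Gap43 (1.27) and Stmn4 (1.21) were called higher with CHQ than with AZA. Other processing took Jakmip2, Map2 and Stmn4 up to 3.99, 3.85 and 1.93. With the processed signal and with the authors' value table only Gap43 was still called, because the other 3 genes were then under the minimum mean level of 7.5. Mapt (-1.44), Stmn3 (-1.28) and Stmn2 (-1.16) were called lower, and Stmn1 and Tubb3, both at -0.64, were not called. The stathmins thus lay on both sides: Stmn4 was lowest with AZA, whereas Stmn2 and Stmn3 were lowest with CHQ. The second Stmn4 probe differed by 0.95, just under the size of a call. These are differences between pooled cultures at a given dose of each compound, and whether they exceed the spread between cultures was not tested.

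The promoters of Stmn3, Tubb3 and Map2 are shown for their CpG dinucleotides, whose methylation AZA acts on. These genes were called lower in AZA than in ELA. Methylation was not measured on these arrays, and a link of the promoters to the AZA differences was not tested. The RefSeq table of promoters used here, on the GRCm38.p6 build, covers 250 bases before to 50 after the annotated start of a gene, and 4 of the 10 genes matched it (Stmn3, Tubb3, Map2 and Dcx). Each strand was searched for the letters of the left part (TTCAGCACC) and the right part (GGACAG) of the RE1 element bound by the repressor REST, for the E-box CAGCTG, which reads the same on both strands, for the GC box GGGCGG and for the TATA box TATAAA, and matches are in capitals.
Stmn3, chr2:181314451-181314750, minus strand: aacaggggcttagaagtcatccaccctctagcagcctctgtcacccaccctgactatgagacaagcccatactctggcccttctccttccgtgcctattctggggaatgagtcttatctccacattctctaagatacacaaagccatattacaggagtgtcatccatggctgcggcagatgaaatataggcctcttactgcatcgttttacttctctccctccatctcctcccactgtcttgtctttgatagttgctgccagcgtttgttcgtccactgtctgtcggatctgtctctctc
Tubb3, chr8:123411303-123411602, plus strand: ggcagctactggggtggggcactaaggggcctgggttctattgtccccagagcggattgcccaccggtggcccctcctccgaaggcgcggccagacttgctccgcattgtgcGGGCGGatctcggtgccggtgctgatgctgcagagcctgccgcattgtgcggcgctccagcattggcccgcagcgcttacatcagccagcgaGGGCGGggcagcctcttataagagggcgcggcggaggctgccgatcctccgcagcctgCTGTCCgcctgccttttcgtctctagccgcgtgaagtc
Map2, chr1:66175079-66175378, plus strand: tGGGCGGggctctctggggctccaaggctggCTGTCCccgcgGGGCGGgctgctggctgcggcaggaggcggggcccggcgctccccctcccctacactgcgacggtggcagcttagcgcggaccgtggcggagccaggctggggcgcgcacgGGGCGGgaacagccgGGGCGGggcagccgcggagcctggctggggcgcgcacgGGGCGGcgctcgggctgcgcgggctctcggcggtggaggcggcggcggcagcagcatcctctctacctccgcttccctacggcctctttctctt
The Stmn3 window held 6 CpG dinucleotides and 49.7% GC, the Tubb3 window 26 and 67.3%, and the Map2 window 37 and 77.7%. Over 32851 windows of the same length the median was 7 CpG dinucleotides, with quartiles of 3 and 20, and 52.7% GC. The Stmn3 window was thus near the median in CpG content, and those of Tubb3 and Map2 were above the upper quartile. Tubb3 held 2 GC boxes and 1 match to the right part of RE1, on the minus strand and 12 bases after the start, and Map2 held 5 GC boxes and 1 match to the right part of RE1. The Stmn3 window held none of these letters. Of all windows 35.7% held the GC box, 22.2% the right part of RE1, 0.371% its left part, 16.3% the E-box and 13.6% the TATA box. Each of the 2 annotated Dcx windows held 3 CpG dinucleotides and the TATA letters.

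Genes of the same pathways were taken by list, with the members left out, and the counts of calls can be read against the percentages above. No list was tested. Of the 75 calls made for the named genes of these lists, 18 were under the size of a call under at least 1 other way of processing and 17 on another probe of the gene. The other tubulins, the building blocks of microtubules, had 2 genes called higher and 2 lower of 17 in AZA, and 0 higher and 4 lower in CHQ. Tubb4a, a beta-tubulin, was at 14.07 in ES, 14.51 in ELA, 12.66 in AZA and 12.39 in CHQ, and was called lower on both treated arrays. Tuba1a, the alpha-tubulin abundant in young neurons, was at 16.43, 16.98, 15.10 and 16.11 and was called lower in AZA. In CHQ it was -0.88 from ELA, not called, with -1.08 on its other probe and down to -1.74 under other processing. Tuba3a was at 12.11, 11.95, 15.08 and 12.89, and Tuba3b at 10.15, 9.85, 12.82 and 10.78. These near-identical alpha-tubulins were both called higher in AZA, by 3.13 and 2.97, and their probes may not separate them. In CHQ, Tubb2a (12.49 in ELA, 10.98 in CHQ) and Tubb5 (17.96 and 16.59) were called lower. In AZA, Tubb5 was -1.0 from ELA, just under the size of a call, and down to -1.69 under other processing. The median over all detected tubulins was 0.08 in AZA, which turned negative under 5 other ways of processing, and -0.28 in CHQ.

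The other microtubule-associated proteins had 7 of 23 genes called higher and none lower in ELA relative to ES, with a median of 0.39 that became -0.27 under spike-in scaling. In AZA 3 were called higher and 7 lower, and in CHQ 4 higher and 5 lower, with medians of -0.55 and -0.23. Map1a was at 8.92 in ES, 9.96 in ELA, 8.13 in AZA and 7.73 in CHQ, called higher in ELA and lower on both treated arrays. Its other probe was under the size of a call in all 3 comparisons, at 0.91, -0.89 and -0.75. The plus-end binding proteins parted: Mapre2 (11.14, 12.27, 10.19 and 11.05) was called lower with each inhibitor, though its other probe was at -0.70 in CHQ, and Mapre3 (9.0, 9.65, 11.60 and 12.40) was called higher with each. Camsap3, which binds the minus ends of microtubules, was at 14, 14.33, 15.90 and 16.19 and was likewise called higher with each inhibitor.

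Tubulin-modifying and severing enzymes had 0 of 21 genes called higher and 5 lower in AZA, and 0 higher and 4 lower in CHQ, with medians of -0.37 and -0.40. Fign, the severing enzyme fidgetin, was at 9.78 in ES, 11.19 in ELA, 8.07 in AZA and 9.27 in CHQ. Its calls followed those of Stmn4, higher in ELA (0.84 under other processing), lower with each inhibitor and higher in CHQ than in AZA. Ttll4, a tubulin glutamylase, was at 12.05, 11.81, 9.98 and 10.56. Vash2, a tubulin carboxypeptidase, was at 8.96, 9.01, 7.05 and 6.99, and the tubulin folding cofactor Tbcb at 13.78, 13.85, 12.79 and 12.15. The last 3 were called lower with each inhibitor and were not called between ELA and ES. Under other processing Tbcb in AZA (-0.82) and Ttll4 in CHQ (-0.90) were under the size of a call.

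Of the neurofilaments and related intermediate filaments, 2 of 8 were called higher and 3 lower in AZA, and 4 higher and 3 lower in CHQ, with medians of -0.35 and -0.18. Ina, the neuronal alpha-internexin, was at 13.29, 13.10, 11.38 and 10.68 and was called lower with each inhibitor, as was the progenitor filament Nes (12.67, 13.52, 11.85 and 12.28). Nefh, the heavy neurofilament chain, was at 13.60, 11.87, 13.48 and 13.87, lowest in ELA, with 0.84 on its other probe in AZA minus ELA against 1.61 on the brightest. Synm (9.25, 9.61, 10.91 and 12.07) was called higher with each inhibitor on its brightest probe, with other probes as low as 0.03 in AZA and 0.97 in CHQ, and Vim (13.12, 13.24, 14.11 and 15.27) with CHQ.

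Growth cone proteins were called higher for 7 and lower for 1 of 20 in ELA relative to ES, with a median of 0.49 that became -0.14 under spike-in scaling. In AZA 2 were called higher and 9 lower, and in CHQ 3 higher and 8 lower, with medians of -0.56 and -0.67. Dpysl2, which carries tubulin dimers to the growing microtubule end, was at 11.66 in ES, 13.11 in ELA, 9.34 in AZA and 9.01 in CHQ. Dbn1, the actin-binding drebrin, was at 11.22, 12.65, 9.70 and 9.09, and Gprin1, a neurite outgrowth protein, at 8.23, 10.30, 7.42 and 6.86. All 3 were called higher in ELA than in ES and lower with each inhibitor, though under other processing Dpysl2 and Dbn1 were only 0.87 and 0.80 above ES.

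Kinases that phosphorylate stathmins, or belong to families that do, had 1 of 17 called higher and 4 lower in AZA, and 1 higher and 2 lower in CHQ, with a median of -0.30 in both. None of them was called between ELA and ES. Pak1 was at 11.36, 11.62, 9.65 and 9.97, and Mapk3 at 13.79, 14.46, 13.13 and 12.64, and both were called lower with each inhibitor. Camk2b, at 11.20, 11.95, 13.68 and 12.49, was called higher in AZA, Camk2d, at 9.53, 10.04, 8.12 and 10.95, lower in AZA, and Mapk10, at 8.54, 9.46, 8.90 and 11.16, higher in CHQ. These last 3 calls were each lost on another probe of the gene, at 0.59, -0.36 and 0.29 in turn, and that of Mapk10 was at 0.99 under other processing.

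Kinesin and dynein motors had 2 called higher and 4 lower of 21 in AZA, and 2 higher and 3 lower of 20 in CHQ, with medians of 0.10 and -0.16. Kif5c, a neuronal transport kinesin, was at 11.76, 12.58, 10.32 and 11.43 and was called lower with each inhibitor, whereas the dynactin subunit Dctn1 (14.15, 14.06, 15.08 and 15.43) was called higher with each. Kif21a (9.48, 11.40, 9.04 and 10.49) was called lower with AZA. Kif2c (11.91, 11.91, 11.32 and 10.73) was called lower and Kif5a (11.17, 12.15, 12.78 and 13.50) higher with CHQ. Of these calls, those of Dctn1 (0.74 in AZA and 0.84 in CHQ), Kif5c in CHQ (-0.82), Kif2c (-0.83) and Kif5a (0.89) were under the size of a call under another way of processing, and the other Kif5a probe was at 0.43. Dync1i1 read 8.32, 6.30, 9.46 and 8.14 and was not well above background in ELA.

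REST is the repressor of many neuronal genes outside the nervous system. None of the 12 genes of REST and its corepressors was called in any of the 4 comparisons, and the medians were 0.09 in AZA and -0.16 in CHQ. Rest itself was at 14.21 in ES, 13.25 in ELA, 13.41 in AZA and 13.20 in CHQ, and its ELA minus ES difference of -0.96 was just under the size of a call. It was -1.11 on the other Rest probe and reached -1.72 under another way of processing, so the absence of a call for Rest depends on the probe and the scaling.

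**Figure D3:**
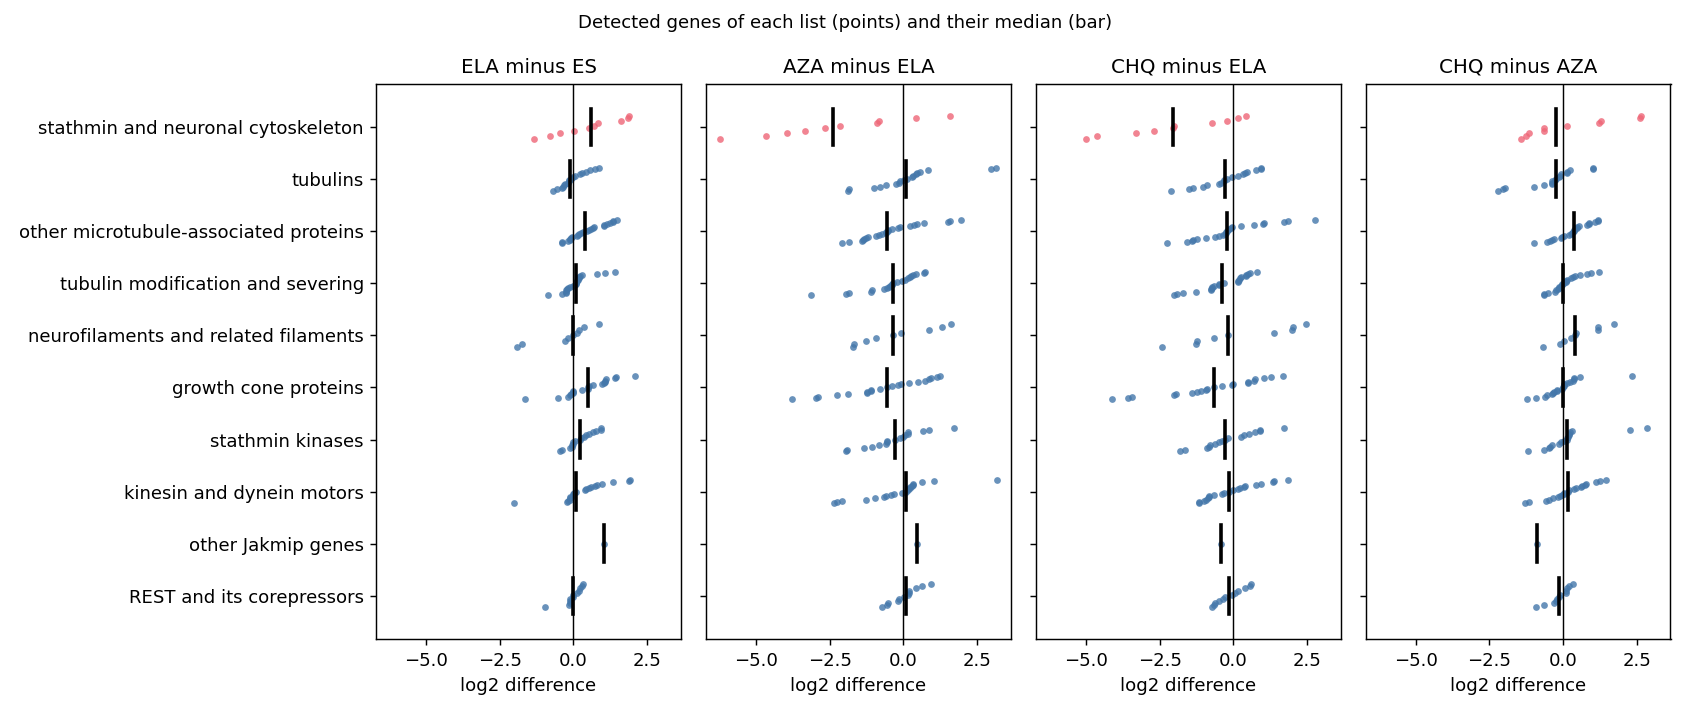
Log2 difference (horizontal axis) of every detected gene of each list (points) and the list's median (bar) in the 4 comparisons. The 10 genes of the set, drawn in red, have medians of -2.39 and -2.04 in the comparisons with ELA, in which part of them were chosen, and growth cone proteins have medians of -0.56 and -0.67.

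Markers of cell types that such cultures could hold were read on the same arrays. Naive pluripotency markers were called lower for 12 of 13 genes in ELA relative to ES, higher for 11 in AZA and higher for 10 and lower for 1 in CHQ relative to ELA, with summed intensities of 228000, 45800, 314000 and 203000 in ES, ELA, AZA and CHQ. Of primed epiblast markers 3 of 7 were called higher in ELA, 4 lower in AZA, and 1 higher and 2 lower in CHQ. Of neuron markers outside the set 17, 16, 17 and 19 of 20 were well above background in that order, and their summed intensity stayed between 24000 and 27000, of which Snap25 gave 33.4% to 44.7%. Their median was -0.54 in AZA and -0.24 in CHQ, with 1 called higher and 5 lower of 14 in AZA and 2 higher and 3 lower of 16 in CHQ. The neurogenic factors Neurog1, Neurog2 and Neurod4 were at or below 7.0 on every array. Neural progenitor markers summed to 52700, 103000, 83900 and 61700, of which Otx2 gave 57.7% to 89.5%, and 5 of 10 were called higher in ELA, none higher and 6 of 9 lower with each inhibitor. Muscle and fibroblast markers summed to 102000, 74800, 16000 and 8870, with 1 called higher and 5 lower of 8 in AZA and 6 of 8 lower in CHQ. Tagln gave 43.6% of that sum in ES and Myl9 36.2% in ELA. Des was not called with either inhibitor, and the gene called higher in AZA was Col1a1 (1.30). Neurod4 and the progenitor factor Pou3f2 were not well above background on any array. Mesoderm and endoderm markers summed to no more than 2970 on any array, and of those with enough signal 2 of 3 were called lower in AZA, and 2 of 5 higher and 2 lower in CHQ. In the comparisons where Stmn3, Stmn4, Tubb3, Gap43 and Jakmip2 were called lower, progenitor markers and muscle and fibroblast markers were thus mostly called lower and naive markers mostly higher, and their part in those differences was not tested.

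The genes whose profile over the 4 arrays was nearest to those of Stmn4, Stmn3 and Jakmip2 were found by the Euclidean distance between log2 profiles, each centred on its mean, among 6682 detected genes that varied by at least 1 log2 unit. For Stmn3 they included Dpysl2 (distance 0.69), Ttyh3 (0.74), Dbn1 (0.79) and Myl3 (0.89). Dpysl2 and Dbn1 are the growth cone proteins described above, and Tubb3, at 0.96, was the nearest gene of the set. For Stmn4 they were Actc1 (0.90), Vat1l (1.28), Slc39a8 (1.38), Nr6a1 (1.55) and Dpysl2 (1.84), of which the cardiac actin gene Actc1 was not well above background in AZA or CHQ. For Jakmip2 they were Calcr (0.63), Gabra3 (0.79), Ptpn13 (0.94), Prtg (1.00) and Magel2 (1.03). Calcr was at 10.55 in ES, 12.02 in ELA, 6.91 in AZA and 9.75 in CHQ, with its lowest level in AZA and CHQ below ES. With 4 arrays such distances describe likeness only.

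**Figure D4:**
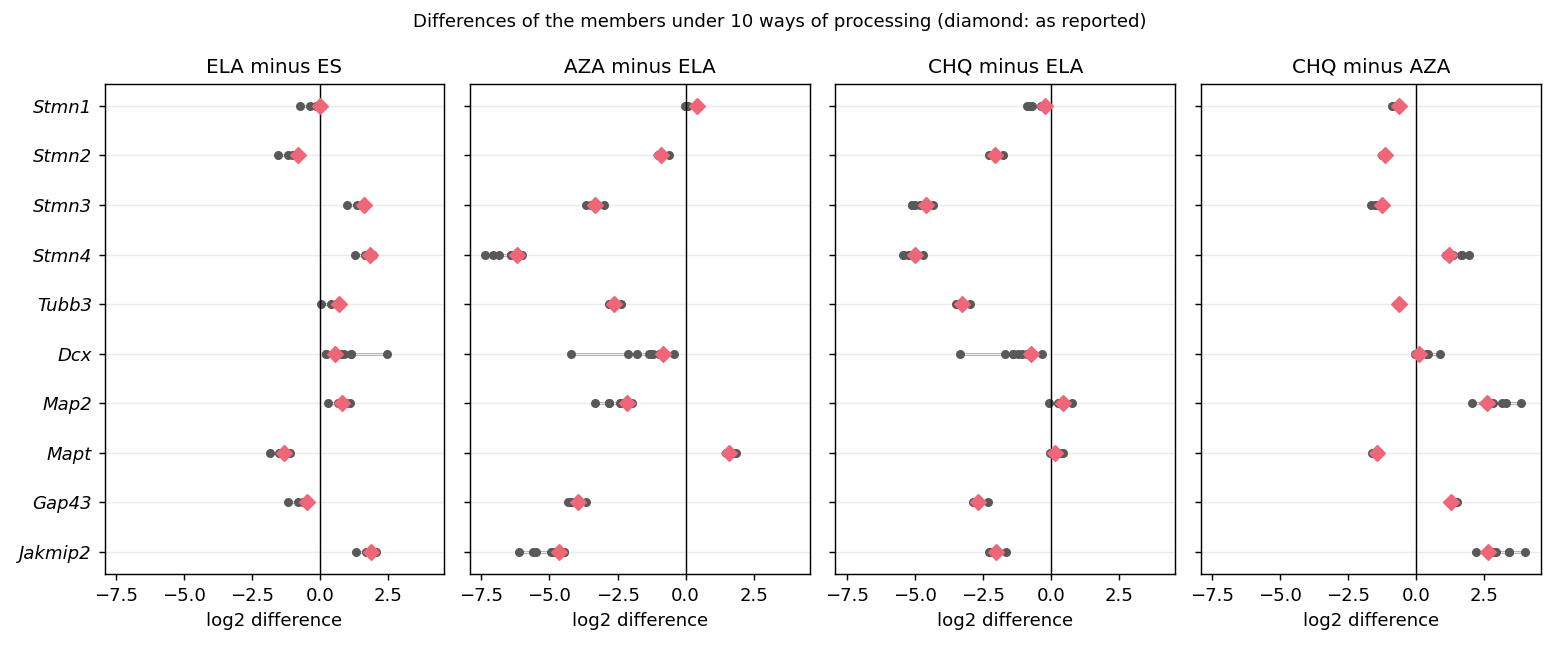
Log2 difference (horizontal axis) of the 10 genes (vertical axis) in the 4 comparisons as reported (diamond) and under 9 other ways of processing (points). Stmn3, Stmn4, Tubb3, Gap43 and Jakmip2 stay left of 0 in both comparisons with ELA, Stmn1 lies on both sides of 0 in ELA minus ES, and Dcx, which is close to background, has a wide range.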

How the data were processed

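Cy3-labelled cRNA was hybridised and scanned by the authors, and per the file headers Agilent Feature Extraction 10.7.3.1 read the images (the submitters' processing notes name 9.1, and limma). The deposited scanner files hold unnormalised spot intensity, local background and quality flags, and the deposited value table holds the authors' normalised log2 values. The study's methods name background correction and quantile normalisation in limma without settings. Here mean intensity was background-corrected by normexp with an offset of 50, a choice of this work, and, without the 3671 control spots, quantile-normalised with limma 3.58.1 (R 4.3.3). Spots flagged as outliers were dropped, and spots of 1 probe were averaged. Of 55681 probes, 26582 were named through their RefSeq accession and 559 were left out. Calls followed the study's size and level thresholds, without its p threshold. The genes and lists were chosen with earlier results of these data known. All probes of the 10 genes are reported. Per pathway list, up to 3 called genes with the largest difference per treatment were named, with Rest and lists under 5 genes. A gene near the profile of Stmn3 is not reported here.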

Additional observations from a re-analysis of the deposited data

How the results depend on the processing

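No paired analysis was possible because each group was 1 array, and for the same reason no array could be left out and no fit with the slide as a block could be made. Over 9 other ways of processing, 253 of 360 differences of the 10 genes moved by less than the spot error of 0.208, and the rest moved by more. The 253 include the 40 from keeping outlier-flagged spots, which left every value as reported. They also include the averages over probes of Stmn2, Stmn3, Tubb3 and Gap43, which have a single probe and could not move. Of the 360, 9 took the other sign, none of them a called difference. These were Stmn1 in ELA minus ES and AZA minus ELA, Mapt and Map2 in CHQ minus ELA and Dcx in CHQ minus AZA. Counts of calls that moved by more than 1.5 times were these. In ELA minus ES, 2 genes were called lower with median scaling and 3 with spike-in scaling, where 1 was reported, with Stmn2 at -1.18 and -1.55 in turn and Gap43 at -1.18 with spike-in scaling. In CHQ minus AZA, 1 gene was called higher with the processed signal and 1 with the authors' value table, where 4 were reported, although Stmn4, Map2, Gap43 and Jakmip2 stayed at least 1.08 higher in CHQ. The other 3 than Gap43 missed the minimum mean level of 7.5 there. Smaller moves were to 4 genes higher in ELA minus ES (processed signal), to 5 lower (without Map2: no offset, processed signal, authors' table) or 7 lower (spike-in, Stmn2 at -1.01) in AZA minus ELA, and to 3 higher in CHQ minus AZA (without Stmn4: no offset, spike-in). When a call needed a log2 difference of 2, 0 genes were called higher and 0 lower in ELA minus ES, 0 higher in AZA minus ELA, and 2 higher and 0 lower in CHQ minus AZA. Scaling moved the median of all detected genes to -0.51 in ELA minus ES, -0.38 in AZA minus ELA, -0.52 in CHQ minus ELA and -0.16 in CHQ minus AZA (spike-in probes), and to -0.31 and -0.35 in AZA and CHQ minus ELA (75th percentile). Differences of the 10 genes under these scalings carry that shift. The medians of the motor and REST lists in AZA minus ELA, and of the associated-protein, filament and motor lists in CHQ minus ELA, took the other sign under some other processing, as did, in ELA minus ES, those of the associated-protein, enzyme, filament, growth cone, kinase, motor, REST, neuron, and muscle and fibroblast lists. Signal over background limits Dcx, and Stmn4, Jakmip2 and Map2 in AZA.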
